A study of Mus musculus with 21 samples.

Results

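The genes Syt4, Cyp26b1, Poc1a, Mcam, Myoc and Ccdc187 are described here in whole spinal cord of mice that lost Tardbp in cells of the oligodendrocyte lineage. They are 6 of the 25127 genes in the deposited values. They were chosen by the measured values themselves, from among the genes whose difference between homozygous and heterozygous deletion changed most between about postnatal day 60 (P60) and day 21 (P21), so that contrast is given as a description, with no test. Tardbp encodes TDP-43, an RNA-binding protein, and the study asked what its loss from oligodendrocytes does to gene expression in the cord.

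At P60 the groups were cKO (Cnp-Cre; Tardbp-fl/fl; 3 males, 61 to 64 days old), cHET (Cnp-Cre; Tardbp-fl/+; 3 males, 60 to 65 days old) and control (Tardbp-fl/fl without Cre; 3 females, 74 days old). At P21 there were 4 cKO, 4 cHET and 4 control mice of the same genotypes, 2 female and 2 male in each group, all 21 days old. All mice were C57BL/6, and each of the 21 libraries came from a separate animal. Cnp-Cre recombines in cells of the oligodendrocyte lineage, while the cord also holds neurons, astrocytes, microglia and vessels. Whole-cord values do not show in which cells Tardbp was lost. The NEXTflex Rapid Directional RNA-Seq Kit served for P60 libraries and the Illumina TruSeq RNA Sample Prep Kit for P21 libraries, so age and kit cannot be told apart. P60 controls differed from P60 cKO and cHET mice also in sex and age.

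Values are the authors' normalized scaled reads per base, a level already divided by gene length. A log2 difference is taken on log2(value + 0.5), which understates the change of low genes, and its SE is the standard error from the limma fit. Summed values were 12.5 M to 13.8 M per library at P60 and 26.9 M to 29.2 M at P21 (M for a factor of 1e6). They follow normalization, so the reads behind each value are unknown. The mitochondrial share of the summed values ran in P60 cKO libraries from 14.6% to 17.9%, in P60 cHET from 11.4% to 16.2% and in P60 control libraries from 10.2% to 16.1%, against 6.40% to 8.12% over the P21 libraries. Tardbp averaged 803 in cKO, 921 in cHET and 883 in control cords at P60, and 1751 in cKO, 2141 in cHET and 2263 in control cords at P21. Its cKO minus cHET log2 difference was -0.20 at P60 (limma adjusted p = 0.0397) and -0.29 at P21 (adjusted p = 0.00249). The P60 call was kept without P60 control 1 or P60 control 3 and lost without any 1 of the other 7 libraries, with adjusted p up to 0.108.

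The 6 proteins have unrelated jobs. Syt4 is a synaptotagmin, a membrane protein of dense-core and other vesicles that takes part in regulated secretion. Cyp26b1 is a cytochrome P450 that hydroxylates all-trans retinoic acid and so clears it from cells. Poc1a is a WD-repeat protein of the centriole wall, needed for stable centrioles. Mcam, also called CD146, is an immunoglobulin-family adhesion molecule of endothelium, pericytes and smooth muscle that binds laminins and galectins. Myoc is a secreted olfactomedin-domain glycoprotein, best known from the trabecular meshwork of the eye and from glaucoma. Ccdc187 is named for its coiled coil.

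The promoters of 4 of the genes are shown because they differed in base composition, although the genes were chosen by the same contrast. RefSeq entries (GRCm38.p6) were found for 5 of the 6 genes. The 250 bases before each RefSeq start are written 5′ to 3′ on the gene's own strand. Capitals mark the TATA box TATAAA on either strand. They also mark the GC box GGGCGG on either strand. A GC box on the opposite strand reads CCGCCC.
Cyp26b1, chr6:84593811-84594060, minus strand: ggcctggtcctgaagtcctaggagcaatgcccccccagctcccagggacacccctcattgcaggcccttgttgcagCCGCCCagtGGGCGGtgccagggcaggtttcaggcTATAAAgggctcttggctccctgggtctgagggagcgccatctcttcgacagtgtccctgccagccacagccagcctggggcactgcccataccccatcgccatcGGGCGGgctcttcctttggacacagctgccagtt
Poc1a, chr9:106280811-106281060, plus strand: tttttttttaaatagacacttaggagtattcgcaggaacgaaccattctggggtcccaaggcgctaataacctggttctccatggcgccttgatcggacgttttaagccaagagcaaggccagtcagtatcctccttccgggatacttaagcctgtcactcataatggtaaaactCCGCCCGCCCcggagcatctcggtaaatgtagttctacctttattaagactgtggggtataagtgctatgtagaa
Mcam, chr9:44134408-44134657, plus strand: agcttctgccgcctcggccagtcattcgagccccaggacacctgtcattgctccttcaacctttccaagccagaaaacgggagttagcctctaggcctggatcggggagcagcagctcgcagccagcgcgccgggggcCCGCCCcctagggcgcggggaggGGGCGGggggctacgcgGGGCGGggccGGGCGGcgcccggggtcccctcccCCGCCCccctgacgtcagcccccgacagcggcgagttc
Myoc, chr1:162638900-162639149, plus strand: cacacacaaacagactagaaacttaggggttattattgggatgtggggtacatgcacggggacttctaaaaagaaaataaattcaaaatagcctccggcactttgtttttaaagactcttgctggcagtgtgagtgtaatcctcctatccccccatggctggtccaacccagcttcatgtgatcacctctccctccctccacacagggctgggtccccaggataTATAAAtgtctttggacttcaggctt

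The Mcam window was 73.6% G and C and that of Cyp26b1 64.8%, whereas Myoc had 46.8% and Poc1a 46.4%, beside a median of 52.4% over 32851 mouse promoters. Ccdc187, whose sequence is not shown, had 52.0%. TATAAA occurred once in Cyp26b1, 139 to 134 bases before the start, and once in Myoc, 26 to 21 bases before it. It occurred in 12.4% of all promoters. GC boxes numbered 5 in Mcam, 3 in Cyp26b1 and 2 overlapping ones in Poc1a, with none in Myoc or Ccdc187, and 32.7% of all promoters held at least 1. The E-box CACGTG (6.02% of promoters), the nuclear receptor half-site AGGTCA (14.0%) and the AP-1 site TGACTCA (4.46%) had no match in the 5 windows. No motif searched was shared by all 5. GC boxes stood in the windows of Cyp26b1, Poc1a and Mcam, which were higher in P60 cKO than in cHET cords, and not in those of Myoc and Ccdc187, which were lower. Syt4, which was also higher, had no RefSeq entry and is missing from this split. With 5 windows of genes chosen by the same contrast, a link between motif and direction was not tested. The GENCODE M21 starts of Cyp26b1 (84593908) and Mcam (44134469) lie inside their windows. All 5 GC boxes of Mcam, and the Cyp26b1 box nearest its RefSeq start, thus fall within the annotated gene. These are matches of letters within these windows and no more.

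TGTGTG, a run of the TG repeats to which TDP-43 binds in RNA, was counted in the longest annotated transcript of each gene. Mcam had 7 matches (2.34 per 1000 bases), Syt4 had 6 (1.54), Ccdc187 had 13 (1.36), Poc1a had 2 (0.856), Cyp26b1 had 1 (0.222) and Myoc had 0. The median over 16428 genes was 0.491 per 1000 bases, and 75.2% of genes had at least 1 match. By rank the 6 genes thus ran from Myoc, with no match, to Mcam, whose density was above that of 96.8% of genes.

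Cyp26b1 differed most between P60 cKO and cHET cords. It stood at 607, 543 and 536 in P60 cKO libraries, against 51.5, 59.3 and 70.2 in P60 cHET and 66.5, 61.5 and 45.9 in P60 control libraries. Every cKO value was far above every value of the other genotypes, and cHET and control overlapped. The cKO minus cHET log2 difference was 3.22 ± 0.16 (SE), or 9.31-fold. At P21 its values were 208, 279.5, 241 and 239.6 in cKO, against 206, 205, 147 and 159 in cHET and 194, 213, 190.1 and 161 in control libraries. The P21 cKO values lay just above the cHET values, by a log2 difference of 0.44 ± 0.14, and overlapped the control values. All these are whole-cord levels, in which a change in the number of cells that express a gene and a change in its RNA per cell cannot be told apart.

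Poc1a followed the same course with more scatter. Its values were 780.4, 730.0 and 566 in P60 cKO libraries, against 88.6, 121 and 92.7 in P60 cHET and 77.8, 83.3 and 102 in P60 control libraries. The groups were widely apart, with a cKO minus cHET log2 difference of 2.77 ± 0.16, or 6.84-fold. At P21 the values were 449, 574, 613 and 668 in cKO, against 483, 487, 385 and 565 in cHET and 392, 481, 498 and 499 in control libraries. These 3 groups overlapped, and the log2 difference was 0.26 ± 0.14. Among the P21 males the cKO values of 574 and 613 were above the cHET values of 385 and 487, and among the females, where cKO ran from 449 to 668 and cHET from 483 to 565, they overlapped.

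Mcam was higher in cKO at both ages, and more so at P60. It reached 991, 1020.3 and 1028 in P60 cKO libraries, against 345, 369.8 and 350.3 in P60 cHET and 356, 405 and 361 in P60 control libraries. At P21 it was 2441, 2599, 2749.8 and 2532.5 in cKO, against 1828, 1927, 1852 and 1757 in cHET and 1725.5, 1968, 1884 and 1907 in control libraries. The cKO values were above all others of their age in both sets. The log2 difference of cKO minus cHET was 1.51 ± 0.07 at P60, or 2.85-fold, and 0.49 ± 0.06 at P21, or 1.40-fold.

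Syt4 was the one gene of the 6 whose difference had opposite signs at the 2 ages. At P60 it was 7156, 7152 and 7141 in cKO, against 2429, 2549 and 2825 in cHET and 2883, 2318 and 2651 in control libraries. At P21 it was 4158, 4101, 4523 and 4113 in cKO, against 5255, 4802, 5411 and 5647 in cHET and 5569, 4929, 5673 and 4891 in control libraries. All cKO values were thus above the other genotypes at P60 and below them at P21. The log2 difference of cKO minus cHET was 1.46 ± 0.08 at P60 (2.75-fold) and -0.32 ± 0.07 at P21 (0.801-fold). The 3 P60 cKO mice were almost equal, with a coefficient of variation of 0.106%, against 7.82% in P60 cHET and 10.9% in P60 control mice.

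Myoc was lower in cKO at both ages. Its values were 151, 97.6 and 153 in P60 cKO libraries, against 837, 1061 and 1106 in P60 cHET and 861, 883 and 926 in P60 control libraries. At P21 they were 2219, 2050.4, 2059 and 2794 in cKO, against 3653, 3678, 3586 and 3742 in cHET and 3285, 3709, 2944 and 3558 in control libraries. No cKO value reached the lowest cHET or control value of its age. The cKO minus cHET log2 difference was -2.92 ± 0.16 at P60, where cHET was 7.55-fold above cKO, and -0.70 ± 0.09 at P21, where it was 1.62-fold above cKO.

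Ccdc187 was lower in cKO chiefly at P60. It was at 94.9, 104 and 88.6 in P60 cKO libraries, against 526, 533 and 451 in P60 cHET and 449, 467 and 424 in P60 control libraries. At P21 it was at 952, 732, 748 and 708 in cKO, against 946, 996, 1004 and 1094 in cHET and 838, 1008, 988 and 1035 in control libraries. The P60 groups were far apart, while at P21 a single cKO library, at 952, reached into the range of cHET and control. The log2 difference of cKO minus cHET was -2.38 ± 0.10 at P60, with cHET 5.22-fold above cKO, and -0.37 ± 0.10 at P21. Among the P21 males cKO (732 and 748) was below cHET (996 and 1004), and among the females cKO (708 to 952) and cHET (946 to 1094) overlapped.

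The per-library values of Ccdc187 are not those behind the authors' deposited tables. The geometric mean over libraries was 278 at P60 and 912 at P21 in the per-library values, and 147 at P60 and 525 at P21 in the authors' deposited tables. In those tables the cKO against cHET effect, converted to log2, was -2.47 with an SE of 0.152 at P60 and -0.54 with an SE of 0.0991 at P21. Direction and order of size were thus alike in both sources, while the level was not. For the other 5 genes the means in both sources were equal within 1e-06.

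**Figure D1:**
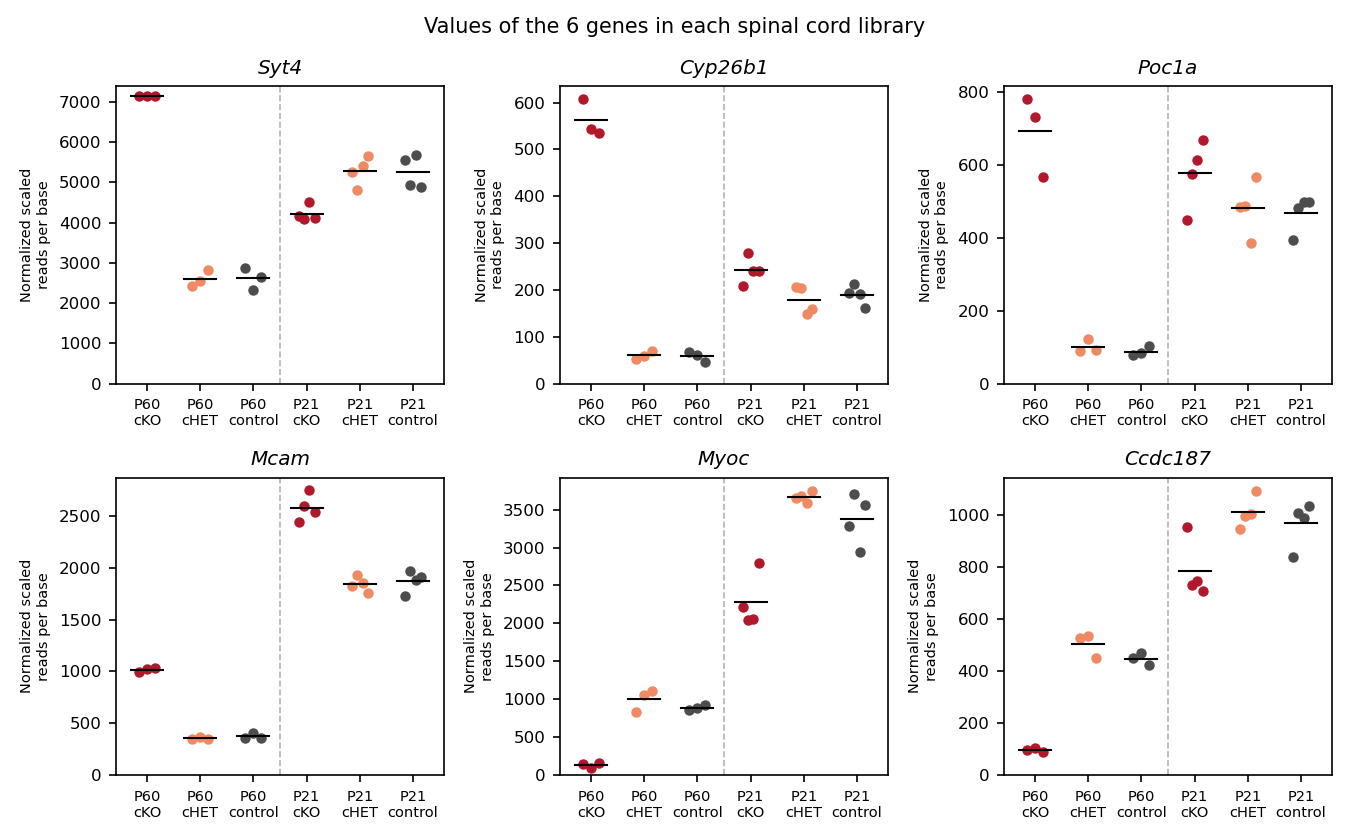
Normalized scaled reads per base of the 6 genes in each of the 21 libraries, with 1 point per mouse and a line at the group mean, P60 groups left of the dashed line and P21 groups right of it. P60 cKO points stand clear of P60 cHET and control points for all 6 genes, while the P21 genotypes lie closer together.

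As the choice implies, no gene of the 6 had overlapping cKO and cHET values at P60, where 39.5% of 16833 tested genes had none. At P21 the values of Syt4, Cyp26b1, Mcam and Myoc did not overlap, 4 of 6, where 22.6% of 17989 tested genes did not. In the limma fit over all genes, 25% of genes at P60 (13.4% higher, 11.5% lower in cKO) and 22.6% at P21 (12.6% higher, 9.97% lower) passed an adjusted p of 0.05 in this contrast. The age difference, P60 minus P21 in the cKO minus cHET log2 difference, was 2.78 ± 0.22 (SE) for Cyp26b1, 2.51 ± 0.22 for Poc1a, 1.78 ± 0.11 for Syt4 and 1.03 ± 0.08 for Mcam. It was -2.22 ± 0.19 for Myoc and -2.01 ± 0.14 for Ccdc187. An age difference passed the same threshold for 2.82% of 18252 tested genes, 1.31% with a higher and 1.5% with a lower difference at P60. Ranked by the p of that difference, the 6 genes are all among the first 10, a place that the choice favours.

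The 4 other genes among those 10 were not chosen. Their age differences were 2.55 for Ngfr, the p75 neurotrophin receptor, 1.29 for the collagen Col27a1, -1.85 for Hapln2, a link protein of the matrix at nodes of Ranvier, and -2.26 for Anln, the actin-binding protein anillin. Ngfr averaged 405 in P60 cKO and 88.8 in P60 cHET cords, and 79.7 in P21 cKO and 103 in P21 cHET cords, so its P21 difference was of the opposite sign, as for Syt4. Hapln2 and Anln were lower in P21 cKO than in P21 cHET cords as well, with log2 differences of -1.21 and -1.71. In Poc1a, which had the tenth smallest p, the age difference of 2.51 stood next to that of Gadd45b, a stress-inducible gene in eleventh place, at 1.55.

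Control mice, whose levels are no term of the cKO minus cHET difference, stood with cHET mice. Against control, the P60 cKO log2 differences were 3.28 for Cyp26b1, 2.97 for Poc1a, 1.46 for Syt4, 1.44 for Mcam, -2.76 for Myoc and -2.22 for Ccdc187. At P21 they were 0.35, 0.29, -0.32, 0.46, -0.57 and -0.31 in the same order of genes. These share the cKO libraries with the first contrast and are given beside it for that reason only. Values of cKO and control did not overlap for 6 of 6 genes at P60 (40.8% of all tested genes) and for Syt4, Mcam and Myoc, 3 of 6, at P21 (27.4%).

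Loss of 1 Tardbp allele with Cre went with little difference in these genes. The cHET minus control log2 differences ran from -0.07 (Mcam) to 0.19 (Poc1a) at P60 and from -0.09 (Cyp26b1) to 0.12 (Myoc) at P21. Values of cHET and control overlapped for all 6 genes at both ages, where 10.2% of tested genes at P60 and 5.13% at P21 did not overlap. The P60 cHET and control mice differ in sex and age as well as genotype, so genotype, sex and age cannot be told apart there. At both ages Cre, carried in the Cnp locus, came with the lost allele. Cnp averaged 8830 in P60 cHET and 15210 in P60 control cords, and 46723 in P21 cHET and 84250 in P21 control cords. The lost Tardbp allele, Cre and the lower Cnp level cannot be told apart in this contrast.

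**Figure D2:**
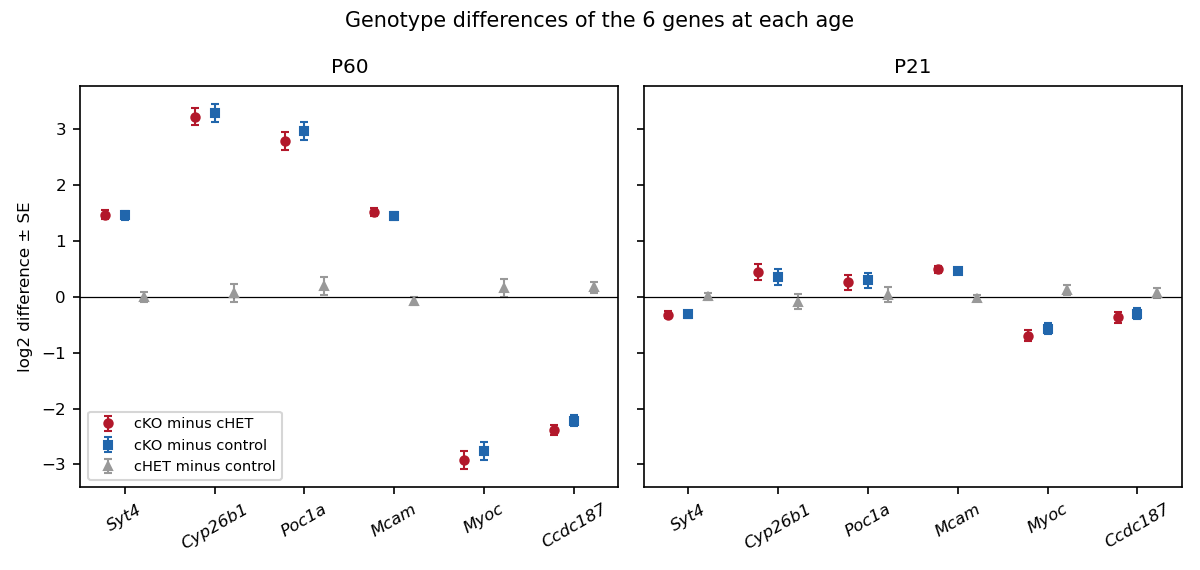
Log2 differences between genotypes for the 6 genes at P60 and P21, with bars of 1 SE from the limma fit, for cKO minus cHET, cKO minus control and cHET minus control. The 2 contrasts with cKO lie together, up to 3.28 for Cyp26b1 at P60, and cHET minus control lies between -0.09 and 0.19.

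Levels of the ages were scaled apart, so each gene is placed here within its own library, among 16833 tested genes at P60 and 17989 at P21. These places still carry the differences between the ages in kit and in the sexes sampled. In P60 cKO cords Cyp26b1 had a higher value than a mean of 74.1% of tested genes, against 29.7% in P60 cHET and 29.2% in P60 control cords. At P21 these shares were 40.1% in cKO, 37.5% in cHET and 38.1% in control. Poc1a stood above 78.2% in P60 cKO cords, against 37.1% in cHET and 35.0% in control, while its P21 means were between 53.0% and 56.5%. In control cords the standing of these 2 genes was thus lower at P60 than at P21, and in cKO cords it was higher at P60.

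Mcam stood above 85.2% of genes in P60 cKO cords, against 63.9% in P60 cHET and 65.2% in P60 control cords. Its P21 shares were 87.7% in cKO, 81.9% in cHET and 82.4% in control, so that cKO cords had nearly the same standing at both ages and the other genotypes a lower one at P60. Syt4 was a high-ranking gene throughout, above 99.1% in P60 cKO cords and 95.4% in both other P60 groups, against 93.4% in cKO, 94.8% in cHET and 94.9% in control cords at P21. Myoc stood above 40.7% in P60 cKO cords, against 84.8% in P60 cHET and 83.2% in P60 control cords, with 85.6% to 91.9% in the P21 groups. Ccdc187 stood above 34.8% in P60 cKO cords, against 71.9% in P60 cHET and 69.4% in P60 control cords, with 63.8% to 69.9% at P21. In control cords Myoc also stood lower at P60 than at P21, where it was above 90.9%, by less than in cKO cords.

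The same was seen in the ratio of the P60 mean to the P21 mean, divided by the median of that ratio over 16570 genes. It was 5.39 in cKO and 0.722 in control cords for Cyp26b1, 3.93 in cKO and 1.17 in control for Syt4, and 2.79 in cKO and 0.442 in control for Poc1a. For Mcam it was 0.913 in cKO and 0.469 in control. For Myoc it was 0.137 in cKO and 0.619 in control, and for Ccdc187 0.285 in cKO and 1.08 in control. Mcam and Poc1a were the lowest of the 6 in control cords by this measure, and Myoc in cKO cords. The kits differ between ages, so these ratios are not a course of development.

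**Figure D3:**
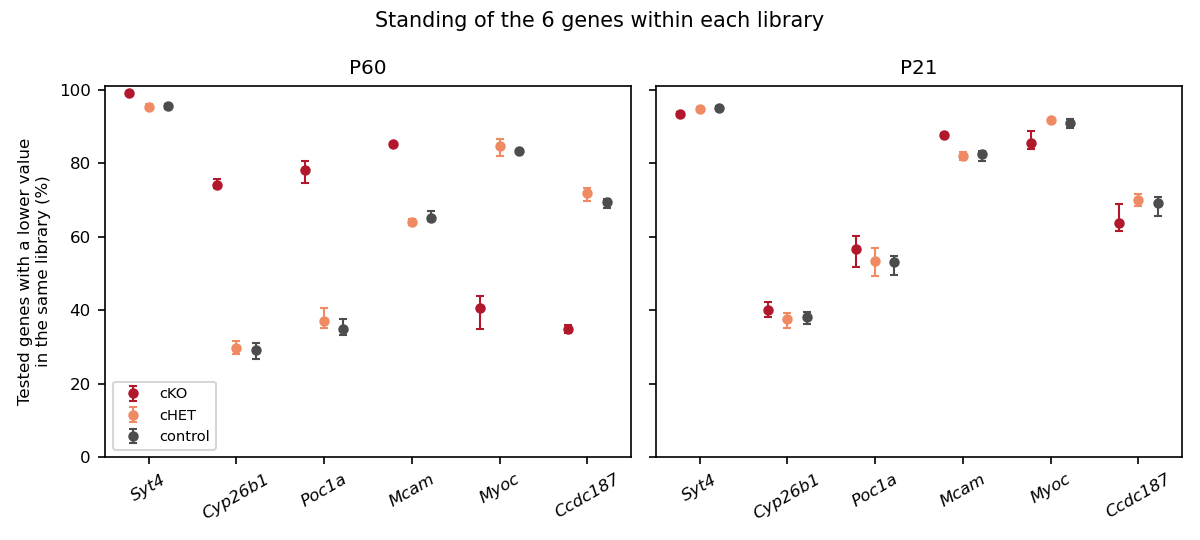
Share of tested genes (in percent) with a lower value than each of the 6 genes in the same library, as the group mean with bars from the lowest to the highest library. P60 cKO points depart from the other P60 genotypes for Cyp26b1, Poc1a and Mcam upward and for Myoc and Ccdc187 downward, and Syt4 is near the top of the scale in every group.

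The 6 genes lie on 5 chromosomes (GRCm38, GENCODE M21). Syt4 is on chromosome 18 (31437808 to 31447406, minus strand, 4 merged exons) and Cyp26b1 on chromosome 6 (84571414 to 84593908, minus, 9 exons). Poc1a (106281061 to 106350521, plus, 18 exons) and Mcam (44134469 to 44142727, plus, 16 exons) are both on chromosome 9, far apart. Myoc is on chromosome 1 (162639155 to 162649693, plus, 3 exons) and Ccdc187 on chromosome 2 (26243469 to 26294557, minus, 27 exons).

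The nearest tested gene on each side of each of the 6, chosen after the data were seen, gave 12 neighbours. Their cKO minus cHET log2 differences ran from -0.32 (Qsox2) to 0.46 (Dysf) at P60 and from -0.27 (Rit2) to 0.33 (Dysf) at P21. Cbl begins 249 bases from Mcam, and its means were 69.0 in P60 cKO and 57.9 in P60 cHET cords, against 1013 and 355 for Mcam in the same groups. At P60 all 12 were closer to 0 than any of the 6 genes, which the choice of the 6 by this contrast favours. At P21 some were as far from 0 as the gene beside them, as Alas1 at 0.27 beside Poc1a at 0.26. Antisense genes are annotated across Syt4 (Gm26658), Poc1a (Gm29123) and 17 bases of Mcam (Gm10687), and Myocos shares 2501 bases with Myoc on the opposite strand. Myocos averaged 0.692 in P60 cKO and 5.35 in P60 cHET cords, and 11.4 in P21 cKO and 43.5 in P21 cHET cords. The sources used here do not say whether the counting used strand, so reads of Myoc and Myocos may not be separated.

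Across the 21 libraries, with log2 values centred within each age, the 6 genes formed a single pattern of high and low members. Pearson's r was 0.965 for Cyp26b1 with Poc1a, 0.959 for Cyp26b1 with Mcam and -0.981 for Cyp26b1 with Ccdc187, and 0.960 for Myoc with Ccdc187. Syt4 was the least alike, with r between 0.792 (Mcam) and 0.898 (Cyp26b1) among the higher genes. The points share genotype groups, so r here describes the group pattern. Because the 6 genes were chosen on the cKO minus cHET difference, that choice favoured a large r of either sign.

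Among 13863 genes with a mean of at least 20 at both ages, Syt4 was most like Ngfr (r = 0.962), the pseudokinase gene Prag1 (0.938) and the steroid 5-alpha-reductase gene Srd5a1 (0.927). All 3 had P21 differences below 0, as Syt4 did, at -0.37, -0.06 and -0.45. Cyp26b1 was nearest to Gadd45b (0.972), Col27a1 (0.972) and Sh3d19 (0.971), and Poc1a to Tmem123 (0.970), Cyp26b1 itself (0.965) and Col27a1 (0.960). Mcam was nearest to Lims2 (0.983), an adaptor at integrin adhesions, Sh3d19 (0.974) and Erbb3 (0.972), a receptor for neuregulins. Myoc went with Hapln2 (0.974), the fibroblast growth factor receptor gene Fgfr2 (0.972) and Ppp1r14a (0.972), which encodes an inhibitor of myosin phosphatase. Ccdc187 went with the ephrin gene Efnb3 (0.960) and Myoc (0.960). Erbb3 averaged 2384 in P60 cKO, 862 in P60 cHET and 747 in P60 control cords.

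Other genes of the pathways to which the 6 belong were tested in the same limma fits, with p adjusted over all tested genes. The shares of all tested genes that rose and fell, against which the counts are to be read, were 13.4% and 11.5% at P60 and 12.6% and 9.97% at P21. Of the retinoid genes besides Cyp26b1, 22 were tested at P60, of which 4 rose and 2 fell in cKO against cHET, with a median log2 difference of -0.08. At P21, 25 were tested, of which 3 rose and 2 fell, with a median of -0.01. Dhrs3, which reduces retinal back to retinol and is a known retinoic acid target, averaged 456 ± 53.6 (SD, n = 3) in P60 cKO and 154 ± 12.6 in P60 cHET cords. It rose by 1.56 ± 0.11 (SE) on the log2 scale at P60 (adjusted p = 1.62e-06) and by 1.42 ± 0.12 at P21 (adjusted p = 9.15e-07). The retinol dehydrogenase Rdh11 fell by 0.74 at P60 (adjusted p = 7.64e-05) and by 0.45 at P21 (adjusted p = 2.3e-04).

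The retinoic acid receptor Rara rose by 0.60 at P60 (adjusted p = 0.003), to a mean of 192 in cKO, against 126 in cHET cords, and at P21 its log2 difference was 0.05 (adjusted p = 0.804), or -0.07 after quantile normalization. Aldh1a1, which makes retinoic acid from retinal, passed at P21 at 0.30 (adjusted p = 0.0455), a call kept without P21 cKO 1 or P21 cKO 4 and lost without any 1 of the other 10 P21 libraries (adjusted p up to 0.144). Its P60 difference was -0.13 (adjusted p = 0.352). For the age difference, 0 of 25 retinoid genes passed in limma, with 5 at an unadjusted p under 0.05. Rara came nearest at 0.56 (adjusted p = 0.0576), and it passed without P21 control 3 (adjusted p = 0.0427), P21 cKO 3 (0.0490) or P60 control 1 (0.0432). Quantile normalization brought Rara to an adjusted p of 0.0387. The count of 0 became 1 in those fits and without P21 cHET 3 or P21 cKO 1. The P21 count of 5 called retinoid genes became 3 without P21 cHET 4 or P21 cKO 2. Over all genes 2.82% passed for the age difference, so a count of 0 or 1 among 25 is near the background.

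Among synaptotagmins other than Syt4, all calls were lower in cKO cords. Of 14 tested at P60, 7 fell and none rose, with a median log2 difference of -0.34, and of 15 tested at P21, 6 fell and none rose, with a median of -0.34. Syt9 averaged 147 in P60 cKO and 294 in P60 cHET cords, and fell by 0.996 at P60 (adjusted p = 4.2e-05) and by 0.57 at P21 (adjusted p = 0.00158). Syt1, the calcium sensor of fast transmitter release, fell by 0.51 at P60 (adjusted p = 1.66e-04) and by 0.42 at P21 (adjusted p = 0.00227). Syt5 fell by 0.96 at P60 (adjusted p = 7.39e-04) and by 0.49 at P21 (adjusted p = 9.58e-04). Syt16 passed at P21, where it fell by 0.52 (adjusted p = 0.00407), and at P60 its difference was -0.48 (adjusted p = 0.129), which passed without P60 cKO 1 (adjusted p = 0.039). Syt10 fell by 1.24 at P60 (adjusted p = 1.66e-04) and by 0.44 at P21 (adjusted p = 0.00953), and its age difference of -0.80 ± 0.19 passed (adjusted p = 0.0216). That call was lost without P60 cHET 1, P60 cKO 1 or P60 cKO 2 (adjusted p up to 0.0761). Syt4 at P60 therefore stood on the other side of 0 from every called member of its family. Syt8, too low to be tested at either age, averaged 11.4 in P60 cKO cords and 0 in P60 cHET and control cords. At P21 it averaged 16.0 in cKO, 1.15 in cHET and 0 in control cords.

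The dense-core vesicle list, cargo and machinery of the vesicles on which Syt4 sits, gave mostly lower calls. At P60, 15 of 25 genes fell and 1 rose, with a median of -0.34, and at P21 11 fell and 1 rose, with a median of -0.27. The P21 count of 12 called genes became 7 without P21 cHET 4 or P21 cKO 2. The age-difference count of 1 in this list became 2 without P21 cKO 4. Secretogranin genes went both ways, since Scg2 fell by 0.48 at P60 (adjusted p = 8.19e-05) and by 0.27 at P21 (adjusted p = 0.00634), while Scg3 rose by 0.57 at P60 (adjusted p = 6.93e-05) and by 0.47 at P21 (adjusted p = 1.61e-04). Scg3 ran from 1803 to 1843 in P60 cKO and from 1194 to 1237 in P60 cHET libraries.

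Among the peptides, Penk, the enkephalin precursor, fell by 0.59 at P60 (adjusted p = 2.64e-05), and at P21 its difference was -0.17 (adjusted p = 0.12), which passed without P21 cKO 4 (-0.26, adjusted p = 0.00294). Its age difference of -0.41 ± 0.10 passed (adjusted p = 0.0284) and was lost without P21 cHET 1, 2 or 3, P60 cHET 1 or 2, or P60 cKO 1, 2 or 3 (adjusted p up to 0.0882). Npy fell by 0.73 at P60 (adjusted p = 7.39e-04) and by 0.49 at P21 (adjusted p = 0.0285), a P21 call lost without P21 cHET 1, 2 or 4 or P21 cKO 2 or 3 (adjusted p up to 0.0905). Ptprn, a membrane protein of these vesicles, fell by 0.25 at P21 (adjusted p = 0.00269), and its P60 difference was -0.01 (adjusted p = 0.943), or 0.01 without P60 cHET 2 and 0.03 without P60 cKO 2.

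Of 34 centriole genes tested besides Poc1a, 3 rose and 2 fell at P60, where 25% of all genes were called, with a median of -0.04. At P21 2 rose and 2 fell, where 22.6% of all genes were called, with a median of 0.05. The P60 count of 5 became 2 without P60 cKO 1 and 3 without P60 cHET 2, P60 cHET 3 or P60 cKO 3. The P21 count of 4 became 1 without P21 cHET 3 and 2 without P21 control 2, P21 control 4, P21 cHET 4, P21 cKO 1, P21 cKO 2 or P21 cKO 3. Cetn4, a centrin, rose by 0.68 at P60 (adjusted p = 0.00244), to a mean of 181 in cKO, against 113 in cHET cords, and Ccp110, which caps centrioles, fell by 0.42 (adjusted p = 0.00117). At P21 their differences were 0.14 (adjusted p = 0.533; -0.04 after quantile normalization) for Cetn4 and -0.11 (adjusted p = 0.295) for Ccp110. No centriole gene other than Poc1a differed by as much as 1 on the log2 scale among those called.

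Rttn, which is needed for centriole duplication, rose by 0.41 at P60 (adjusted p = 0.0282), a call lost without P60 cHET 1 or 3 or P60 cKO 1 or 3 (adjusted p up to 0.0902). Its rise at P21 was 0.53 (adjusted p = 3.25e-04). Cep120 fell by 0.21 at P60 (adjusted p = 0.0148), lost without P60 cHET 2 or P60 cKO 1 (adjusted p up to 0.0566), and by 0.20 at P21 (adjusted p = 0.0252), lost without P21 cHET 2 or 3 or P21 cKO 1 or 4 (adjusted p up to 0.0794). Cep44 at 0.24 (adjusted p = 0.0398) and Cep135 at -0.21 (adjusted p = 0.0452) passed at P21. Cep44 kept its call without P21 control 1, P21 control 3, P21 cHET 2 or P21 cKO 1 (adjusted p up to 0.0992 elsewhere), and Cep135 without P21 control 1, P21 cHET 1 or P21 cKO 4 (up to 0.124 elsewhere). For the age difference 0 of 34 passed in limma, with 7 at an unadjusted p under 0.05, and that count became 1 without P21 control 4, P21 cHET 4 or P60 cKO 2.

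Of the laminins and other Mcam ligands, 4 of 12 tested at P60 and 4 of 14 tested at P21 rose and none fell, with medians of 0.19 at P60 and 0.25 at P21. Lgals1, the galectin-1 gene, averaged 968 ± 41.1 in P60 cKO and 483 ± 55.1 in P60 cHET cords (SD, n = 3 each). It rose by 1.01 ± 0.09 at P60 (adjusted p = 1.12e-05) and by 0.87 ± 0.09 at P21 (adjusted p = 1.01e-05). Lamb2, a laminin beta chain of basement membranes, rose by 0.61 at P60 (adjusted p = 0.00499) and by 0.46 at P21 (adjusted p = 0.0087), and after quantile normalization the P21 difference was 0.27 and not called. The laminin alpha chain gene Lama5 rose by 1.01 at P60 (adjusted p = 0.0103), and its P21 difference was 0.50 (adjusted p = 0.141), which passed without P21 cHET 4 (adjusted p = 0.0478).

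Lama4, the laminin chain of vessel basement membranes, rose by 1.02 at P60 (adjusted p = 0.0307), to a mean of 141 in cKO, against 69.3 in cHET cords, a call lost without P60 cHET 1 or 3 or P60 cKO 1 or 2 (adjusted p up to 0.117). Its P21 difference was -0.15 (adjusted p = 0.605). Lama2 passed at P21 at 0.46 (adjusted p = 0.0122), where its P60 difference was -0.28 (adjusted p = 0.218), which passed without P60 cKO 2 (-0.47, adjusted p = 0.0138). The age difference of Lama2, -0.74 ± 0.20, passed (adjusted p = 0.0457), and that call was kept without P21 control 2 or 4, P21 cKO 2 or 4, or P60 cKO 2 and lost without any 1 of the other 16 libraries (adjusted p up to 0.135). The count of 1 in this list became 0 in most of those fits and 2 without P60 cKO 2. Lgals3, the galectin-3 gene, averaged 59.9 in P21 cKO and 7.06 in P21 cHET cords, where the cHET mean was set by P21 cHET 4 at 26.4. It rose by 4.87 ± 1.15 at P21 (adjusted p = 0.00682), where the other 3 cHET libraries were at 1.79 or below. Its P21 control libraries were at 5.23 or below, and its P21 cKO libraries ran from 40.2 to 77.4. Lgals3 thus passed the P21 filter only through its high cKO libraries, which favoured the call. The size of its rise rests on cHET values near the 0.5 added before the log. At P60 it was below the filter.

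The olfactomedin-domain family of Myoc had 3 genes that rose and 2 that fell at P60 of 12 tested, with a median of -0.02, and 2 that rose and 2 that fell at P21, with a median of -0.10. Olfml3 averaged 578 ± 126 in P60 cKO and 204 ± 11.7 in P60 cHET cords, and rose by 1.48 at P60 (adjusted p = 2.1e-05) and by 1.93 at P21 (adjusted p = 4.76e-06). Gldn, gliomedin of the node of Ranvier, rose by 1.08 at P60 (adjusted p = 0.00445) and by 1.57 at P21 (adjusted p = 1.64e-06). Adgrl1, a latrophilin receptor, fell by 0.28 at P60 (adjusted p = 0.00978), and its P21 difference was -0.10 (adjusted p = 0.199). Olfml1 fell by 0.39 at P21 (adjusted p = 0.0012), and its P60 difference of -0.25 (adjusted p = 0.0688) passed without P60 cHET 2 (adjusted p = 0.0363). Olfm1 passed at P21 at -0.28 (adjusted p = 0.0398), lost without P21 control 3, P21 cHET 1 or 3 or P21 cKO 1, 2 or 3 (adjusted p up to 0.109).

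Olfml2a was the member of that family whose change depended on age, as that of Myoc did, with the opposite sign. It averaged 117 ± 30.6 in P60 cKO, 50.3 ± 5.40 in P60 cHET and 46.6 ± 6.54 in P60 control cords (SD, n = 3 each), and rose by 1.18 ± 0.19 at P60 (adjusted p = 0.00106). At P21 it averaged 75.2 ± 6.67 in cKO, 90.1 ± 22.6 in cHET and 93.8 ± 16.0 in control cords (SD, n = 4 each), a difference of -0.23 (adjusted p = 0.436). Its age difference of 1.41 ± 0.28 passed (adjusted p = 0.0053) and held in each of the 21 fits that left out 1 library.

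**Figure D4:**
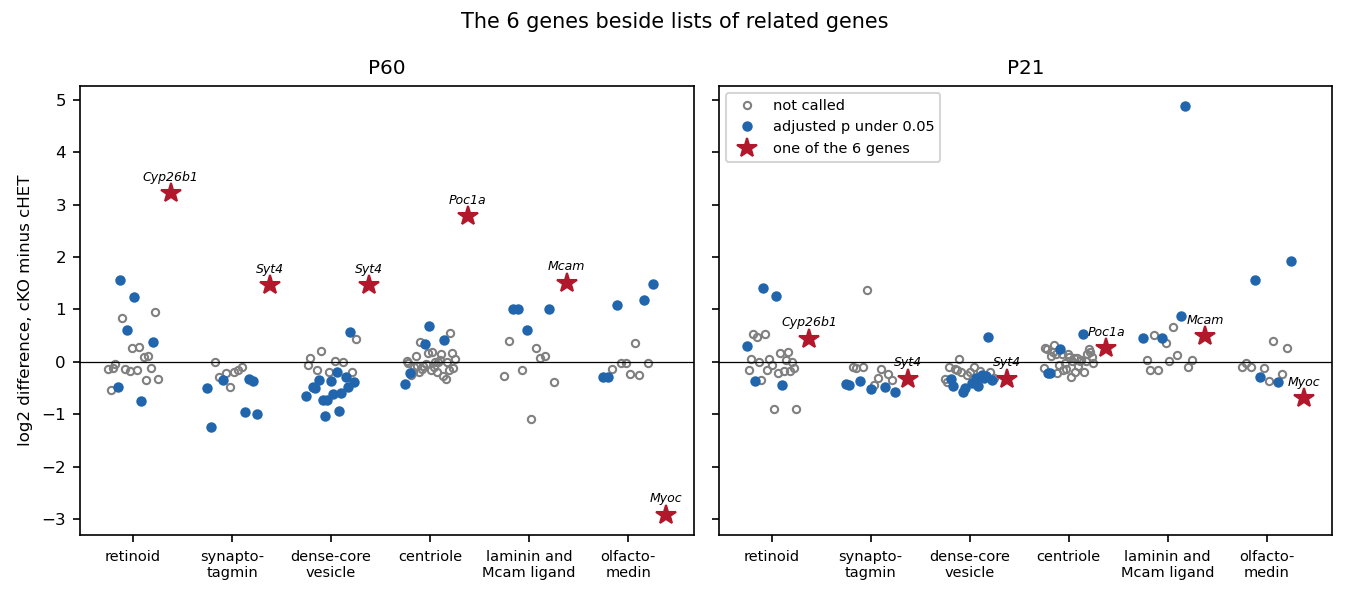
Log2 differences of cKO minus cHET at P60 and P21 for the genes of the 6 pathway lists, filled where the limma adjusted p was under 0.05, with Cyp26b1, Syt4, Poc1a, Mcam and Myoc as stars beside their list (Syt4 beside 2 lists). At P60 the stars lie outside the range of the called genes of their lists, for example Cyp26b1 at 3.22 above Dhrs3 at 1.56. At P21 they lie within the values of their lists, except Myoc at -0.70, with Lgals3 at 4.87 as the highest point. The stars were chosen on the change of this difference between ages, which favours both placements.

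Markers of other cell types moved with genotype, and their part in the values of the 6 genes was not tested. Of 13 microglial markers, 11 were higher and 2 lower in cKO than in cHET cords at both ages. Their summed level at P60 ran in cKO from 26565 to 35820, in cHET from 6660 to 7149 and in control from 5947 to 6899. At P21 it ran in cKO from 51236 to 71475, in cHET from 13060.2 to 15286 and in control from 12646 to 14522. Of 12 astrocyte markers, 10 were higher at P60 and 11 at P21, with P60 sums in cKO of 149198 to 182048, in cHET of 83658 to 90804 and in control of 79946 to 84497, and P21 sums in cKO of 348807 to 400091, in cHET of 185649 to 194117 and in control of 176124 to 186574. Of 12 markers of mature oligodendrocytes, 11 were lower in cKO at both ages, with P60 sums in cKO of 291325 to 348025, in cHET of 507003 to 588129 and in control of 423763 to 474175. The microglial and astrocyte sums of cKO libraries were thus above all cHET and control sums at both ages. Gfap alone made up 59.7% of the astrocyte sum in P60 cKO and 40.7% in P60 cHET cords. At P21 its share was 66.4% in cKO and 51.0% in cHET cords. Mbp made up 70.1% of the oligodendrocyte sum in P60 cKO and 66.1% in P60 cHET cords.

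Vessel markers bear on Mcam. Of 14 endothelial markers, 2 were higher and 12 lower in P60 cKO than in P60 cHET cords, with P60 sums in cKO of 4999 to 5759.8, in cHET of 4784 to 5246 and in control of 4862 to 5284, and at P21 1 was higher and 13 lower. Of 10 markers of pericytes and smooth muscle, 7 were higher and 3 lower at both ages, with P60 sums in cKO of 3922 to 4165, in cHET of 3732 to 4085 and in control of 3768 to 4289. Both P60 sums overlapped between all 3 genotypes. Pecam1 alone made up 28.2% of the endothelial sum in P60 cKO and 17.7% in P60 cHET cords. Mcam was 2.85-fold higher in cKO than in cHET, and the part of vessel cell number in that was not tested. Ciliated and ependymal markers, which bear on Poc1a, had P60 sums in cKO of 1077 to 1152, in cHET of 1149 to 1200.5 and in control of 984 to 1147, with 5 of 16 tested higher and 11 lower in cKO than in cHET. Those sums too overlapped between cKO and cHET. Poc1a was 6.84-fold higher in cKO, and the part of ciliated cell number in that was not tested.

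Neuronal markers, which bear on Syt4, had P60 sums in cKO of 180090.0 to 209859, in cHET of 196347 to 208828 and in control of 194088 to 207687, with 3 of 14 higher and 11 lower in cKO than in cHET. At P21 all 14 were lower, with sums in cKO of 323126 to 368557, in cHET of 388451 to 422406 and in control of 378783 to 465057. Syt4 was thus low beside a low neuronal sum in P21 cKO cords and high beside an overlapping one at P60. The part of neuron number in these Syt4 values was not tested. The 5 motor neuron markers measured summed at P60 in cKO to 1425 to 1896, in cHET to 1299 to 1521 and in control to 1559 to 1824.

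Sums for dorsal root ganglion neurons were at P60 in cKO 246 to 309, in cHET 271 to 371 and in control 293 to 326. Their marker Mrgprd was the one gene of the marker lists at 0 in whole groups, namely P21 cHET and P21 control. The Schwann cell list summed at P60 in cKO to 633 to 685, in cHET to 888 to 2118 and in control to 804 to 940.0, with P60 cHET 2 the high library. Without P60 cHET 2 the cKO minus cHET log2 differences at P60 were 1.45 for Syt4, 3.21 for Cyp26b1, 2.91 for Poc1a, 1.54 for Mcam, -2.87 for Myoc and -2.34 for Ccdc187. The meningeal list summed at P60 in cKO to 40199 to 62892, in cHET to 8818 to 10664 and in control to 7906 to 9149, and Ptgds, which oligodendrocytes also express, made up 96.2% of the P60 cKO sum and 86.0% of the P21 cKO sum. Of the 9 meningeal markers tested, 4 were higher and 5 lower in cKO than in cHET cords at both ages, with median log2 differences of -0.09 at P60 and -0.20 at P21.

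**Figure D5:**
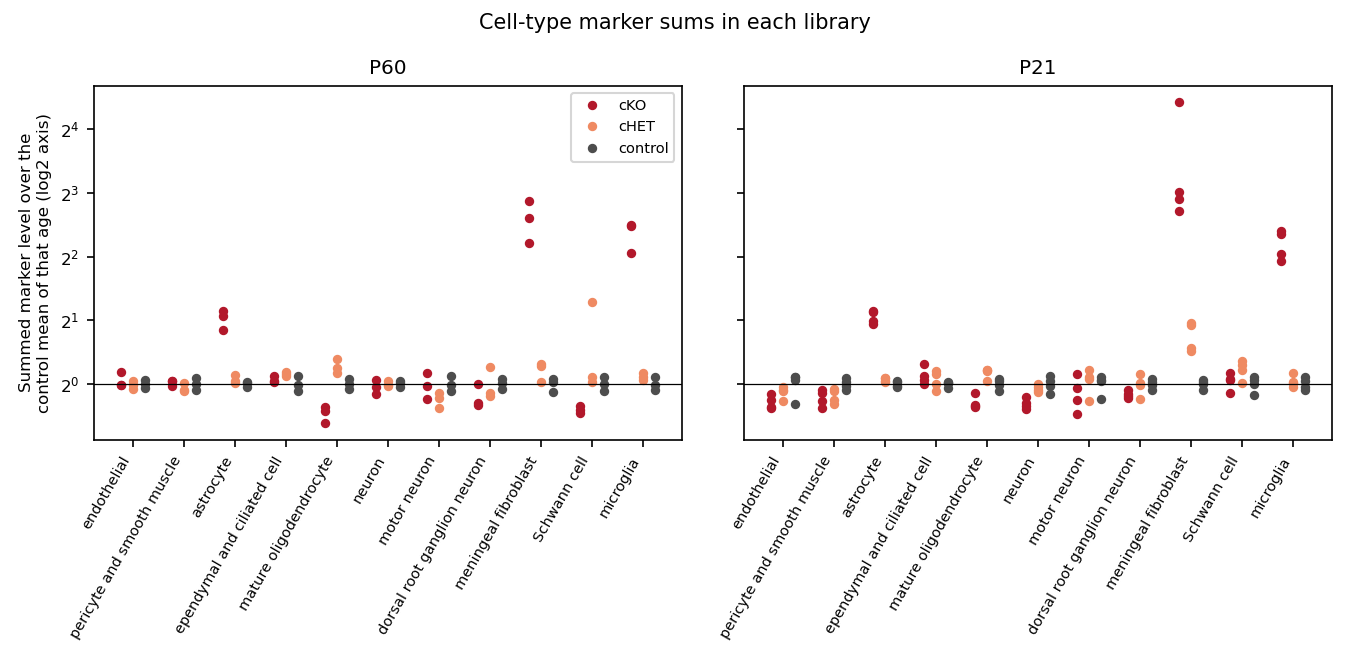
Summed marker level of each library over the control mean of its age, on a log2 axis, for 11 cell types, with 1 point per library. Microglial and astrocyte sums of cKO libraries are above those of cHET and control at both ages, as is the meningeal sum, which is mostly Ptgds, oligodendrocyte sums are below them, and endothelial, pericyte and neuronal sums overlap at P60.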

How the data were processed

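Whole spinal cord RNA was sequenced from 21 mice. Per the submitters' processing notes, kallisto 0.43.0, sleuth 0.28.1 and GRCm38 were used, with roles and annotation release not given in the sources used here. The authors deposited a normalized signal (scaled reads per base) per gene and library, scaled within each age. Comparison tables from the authors give effects with standard errors as natural log values, here divided by the natural log of 2, and q-values, which were not used. The deposited means were equal to those of the per-library values for 15368 of 16928 genes at P60 and 16483 of 18101 at P21. Depth in reads is unknown, so no counting interval is given.

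The 6 genes, the gene lists and the markers were chosen with earlier results of these data known. Fits used log2(value + 0.5). Genes entered a fit with a value of 5 or more in 3 libraries at P60 or 4 at P21, and all 6 genes passed at both ages. Each age's 3 genotypes were fitted jointly by limma-trend (limma 3.58.1, R 4.3.3), with 2-sided moderated tests and Benjamini-Hochberg adjustment at 0.05, and the age difference is the interaction in a fit of all 6 groups. For the age difference a gene had to pass the filter at either age. The 6 genes have no p. Values across ages were not scaled together. Medians of log2 differences over all genes were within 0.01 of 0. Likeness is Pearson's r over log2 values centred within each age.

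Genes named besides the 6 follow a rule: Tardbp and Cnp, up to 4 genes per list called at P60 (smallest p first), up to 2 called at P21 alone, those called for the age difference, the 3 most alike per gene, and the 4 genes of smallest age-difference p outside the 6. Some genes that this rule names are not reported here. Neighbours, overlapping genes and Syt8 were named after their values were seen. Cnp, the locus that carries Cre, had a cKO minus cHET log2 difference of 0.36 at P60 (limma adjusted p = 0.00111) and 0.17 at P21 (adjusted p = 0.0839), which passed without P21 cKO 1 (adjusted p = 0.0242). The fits were tested on simulated data. Alternatives were a pseudocount of 5, no filter, quantile normalization within each age, a fit of the 2 groups compared, and leaving out each library.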

Additional observations from a re-analysis of the deposited data

Results flagged for a closer look

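In groups of 4, single libraries stood apart from the other 3 by Dixon's ratio in 8 of 114 group tests, and chance flags about 1 in 20. Among the 6 genes these were Syt4 in P21 cKO 3 at 4523 (others 4101 to 4158), Poc1a in P21 control 1 at 392 (others 481 to 499) and Ccdc187 in P21 cKO 1 at 952 (others 708 to 748). Among related genes they were Syt1 in P21 cHET 1 at 8221 (others 6037 to 6301) and Penk in P21 cHET 4 at 5748 (others 5355 to 5417). The others were Scg2 in P21 cHET 4 at 10609 (others 9532 to 9605), Lgals3 in P21 cHET 4 at 26.4 (others up to 1.79) and Adgrl1 in P21 control 3 at 12450 (others 13336 to 13459). Of the 8, 3 fell in P21 cHET 4. P60 groups of 3 were not tested in this way.

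Related genes whose cKO against cHET difference differed between P60 and P21 in the limma interaction were Olfml2a (1.41), Syt10 (-0.80), Lama2 (-0.74) and Penk (-0.41). Of these 4 calls, that of Olfml2a alone held in all 21 fits without 1 library.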

How the results depend on the processing

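The log2 differences of the 6 genes kept their sign under every alternative run. The value moved by as much as the pooled SD of log2 values within groups once, for the age difference of Myoc. It became -2.01 without P60 cKO 2, within a range of -2.34 to -2.01 over 21 fits without 1 library. Some smaller moves exceeded 1 SE, as for Myoc at P60, which ranged from -3.04 to -2.70 beside -2.92 ± 0.16 (SE). Genes called over all tested genes ranged without 1 library from 3187 to 4185 at P60, 3194 to 4010 at P21 and 380.0 to 670.0 for the age difference. Counts of called list genes without 1 library ranged from 2 to 6 (centriole) at P60 and from 1 to 4 (centriole), 3 to 5 (retinoid) and 7 to 16 (dense-core vesicle) at P21. For the age difference they ranged from 0 to 1 for the retinoid, centriole and synaptotagmin lists and from 0 to 2 for the dense-core vesicle and laminin lists. The P21 centriole count was 1 in a fit of the 2 groups compared, the age-difference retinoid count was 1 after quantile normalization, and the age-difference laminin count was 0 with no filter. In these cases the cause was not tested. No called difference changed sign. Uncalled ones near 0 did, such as Rara at P21 (-0.07) and Cetn4 at P21 (-0.04) after quantile normalization and Ptprn at P60 (-0.03 to 0.03 without 1 library). No paired analysis was possible because the labels give each mouse its own number and no number is shared between groups. Reads per gene are unknown, so the precision at low values such as Lgals3 or Myocos cannot be given.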
